A study of Mus musculus with 8 samples.

Results

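The control embryos of a mouse study of paternal histone demethylase KDM1A transgenesis are described here: 2-cell embryos with C57BL/6 mothers and C57BL/6 fathers. They were chosen by the genotype label C57BL/6, which 3 of the 8 arrays of the series carry. C57BL/6 females, the usual inbred laboratory strain, were given 5 IU of equine and human chorionic gonadotropin (eCG and hCG), which make many eggs ripen and ovulate together, and were then mated with C57BL/6 males. The other 5 arrays hold embryos of other fathers and were not used. Females with a mating plug were killed 46 to 48 h after hCG, and embryos were washed out of the oviduct, the tube in which fertilisation and early cleavage take place, with a saline and albumin solution. An average of 26 embryos was pooled per RNA sample. The RNA was amplified, labelled with biotin and hybridised to 1 Affymetrix array per pool. All values are therefore from superovulated mothers, from an unspecified number of dams per pool, and separate animals are not stated for the pools, so the spread between them may be technical in part. They are called pools 1, 2 and 3 after their replicate numbers, which carry no order.

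At the 2-cell stage the mouse embryo passes from the RNA laid down in the egg to RNA of its own. The growing oocyte stores messengers for secreted growth factors, the zona pellucida, RNA-binding proteins and a large protein complex beneath the cell cortex, and most of that store is degraded between meiotic maturation and the end of the 2-cell stage. Transcription begins weakly in the zygote and strongly in the 2-cell embryo (zygotic genome activation), when a short-lived wave of multicopy genes such as Zscan4, Usp17l, Tdpoz, Pramel and Eif1a-like genes is transcribed. Ribosome production resumes at about the same time.

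The deposited table gave log2 signals for 22961 probesets, from 0.12 to 12.2 in these pools. Of these, 15745 named exactly 1 gene symbol and stood for 14995 genes, 1320 named several symbols and 5896 were unnamed. The brightest probeset stood for each of the 574 genes that had more than 1. The 3 columns did not share one distribution, with interquartile ranges over all probesets of 1.91, 2.02 and 1.96, so how they were scaled is not known, and differences between pools rest on the values as deposited. A signal depends on the probes as well as on the RNA, so a rank orders signals and not numbers of transcripts. The probesets of such genes differed by a median of 0.95 between the brightest and the dimmest, and by more than 2 in 117 genes. In pooled embryos, fewer cells of a type and less RNA per cell cannot be told apart.

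Olfactory receptor genes, which belong to the nose, gave the level that signal reaches without known transcription. The 95th percentile of their 815 probesets was 3.35 in pool 1, 3.42 in pool 2 and 3.28 in pool 3, against medians over all probesets of 2.81, 2.86 and 2.78. In every pool 4737 genes exceeded this reference level, 31.6% of the 14995 genes. At least 1 pool exceeded it for 7274 genes, 48.5%, and none did for 7721. The cut decides the count: the 99th percentile of the same probesets left 2066 genes, and the 95th percentile of vomeronasal receptor probesets, an alternative added after the data were seen, left 3047. The upper end of the ranking was thin. Of the 14995 genes, 660 had a mean of at least 6, 117 at least 8 and 17 at least 10. Counts of list members above the level in every pool are to be read against the 31.6% of all genes. The lists were chosen with earlier results of these data known, so a high share is not independent of the data.

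The 6 brightest named genes were 5 subunits of respiratory complex I encoded in the mitochondrial genome and Rn7sk, the small nuclear RNA that holds the elongation kinase P-TEFb inactive. ND5 read 12.20, 11.84 and 12.20 in pools 1, 2 and 3 (mean 12.08 ± 0.21, SD, n = 3). ND6 read 11.89, 11.65 and 11.91, and ND1 11.72, 11.50 and 11.82. ND4L and ND2 followed at means of 11.44 and 11.43. All 5 were lowest in pool 2 and, as deposited, highest in pool 3; after quantile normalization of the 3 arrays the list's highest pool was pool 1. Rn7sk went another way, at 11.18, 11.85 and 11.84.

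**Figure D1:**
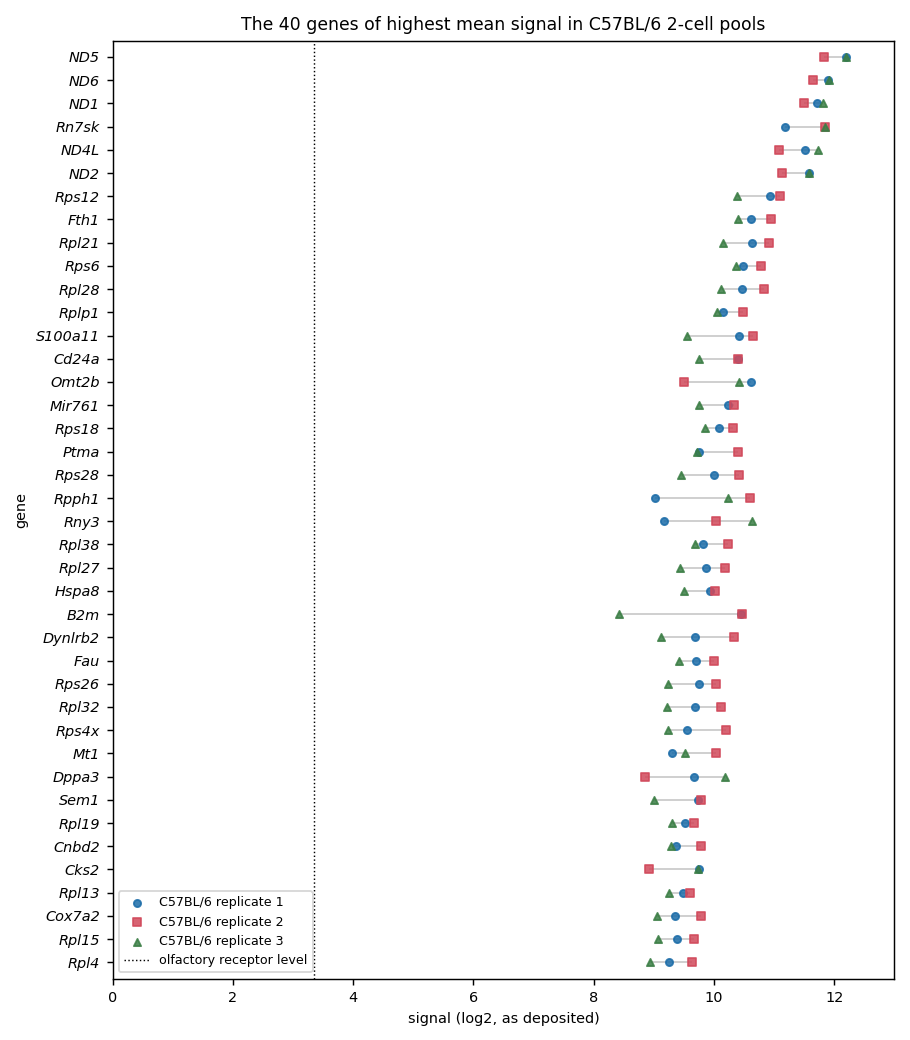
Deposited log2 signal (x axis) of the 40 genes of highest mean (y axis), 1 marker per pool, with a grey line from the lowest to the highest pool and a dotted line at the mean olfactory receptor level. All markers lie above 8, and B2m has the longest line, from 8.42 in pool 3 to 10.47 in pool 2.

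Below the mitochondrial transcripts, ribosomal protein genes stood among genes of many other kinds. Fth1, the heavy chain of the iron store ferritin, read 10.62, 10.94 and 10.40 (mean 10.65 ± 0.28, SD, n = 3). S100a11, a calcium-binding protein, read 10.42, 10.64 and 9.54. Cd24a, a small surface glycoprotein, read 10.40, 10.40 and 9.75. All 3 genes were lowest in pool 3. Omt2b, an oocyte maturation gene, ranked 15th at 10.62, 9.50 and 10.42 and was lowest in pool 2 instead. Ptma (prothymosin alpha), the constitutive chaperone Hspa8 and the metal-binding metallothionein Mt1 had means of 9.96, 9.82 and 9.62. B2m, the light chain of class I histocompatibility molecules, was the most variable of the 50 brightest genes, at 10.44, 10.47 and 8.42. Dppa3, also called Stella, the maternal factor that shields the egg's genome from demethylation, ranked 32nd at 9.67, 8.86 and 10.18. Cks2, which binds cyclin-dependent kinases, ranked 36th at 9.76, 8.92 and 9.73. Dppa3 and Cks2, like Omt2b, were lowest in pool 2. Of the 50 brightest genes, 37 were highest in pool 2 and 36 lowest in pool 3, whereas over all genes 36.2% were highest in pool 2 and 34.9% lowest in pool 3. Of these 50 genes, 16 had several probesets, and in 10 of those the dimmest lay more than 2 below the brightest.

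Among the 100 brightest genes, 85 were protein coding by the RefSeq annotation, against 86.7% of all ranked genes. The count covers named probesets only. Of the 100 brightest probesets of any kind, 48 named 1 gene, 17 named several and 35 were unnamed.

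Cytosolic ribosomal proteins build the small (Rps) and large (Rpl) subunits of the ribosome. They formed the brightest large family: 26 of the 51 measured were among the 100 brightest genes, and their median rank percentile was 99.4 against 50.0 for all genes. In every pool 45 of the 51 exceeded the reference level. Rps12 read 10.93, 11.10 and 10.38, the highest of the family. Rps6, the target of S6 kinase, read 10.49, 10.79 and 10.36. Rpl28 of the large subunit read 10.47, 10.84 and 10.12. These 3 genes had the same order of pools, and so did most of the family. Of the 51, 43 were highest in pool 2 and 43 lowest in pool 3, against 36.2% and 34.9% of all genes. Rpl21, Rplp1 and Rps18 had means of 10.57, 10.23 and 10.08. At the other end Rplp2, a stalk protein, had a mean of 1.86, Rpl11 2.43 and Rpl5 3.41, although all 3 are parts of the same ribosome. Probesets also differed within genes: the dimmest probesets of Rpl21, Rps18 and Rps28 had means of 3.95, 2.24 and 2.26. Of 11 symbols of ribosomal protein pseudogenes, 3 exceeded the reference level in every pool. Rpl34-ps2 had a mean of 9.26 and Rpl31-ps20 one of 8.90, and such copies can share probes with their parent genes.

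Vertebrate ribosomal protein genes start transcription inside a run of pyrimidines, the TOP element, which lies at the head of the messenger. RefSeq (GRCm38.p6) gave promoters for 40 of the 51 genes, 45 windows in all. The letters CTTTC, read on the transcribed strand and lying entirely within 10 bases either side of the annotated start, were found in 8 of the 45 (17.8%) and in 2.44% of all 32851 promoters of the table; on the opposite strand the shares were 4.44% and 2.23%. Start regions of 3 bright members are printed 5′ to 3′, from 10 bases before the start, with CTTTC in capitals. Rpl28 lies at chr7:4792955-4792984 on the plus strand, Rpl38 at chr11:114668570-114668599 on the plus strand and Rps6 at chr4:86857348-86857377 on the minus strand.
Rpl28: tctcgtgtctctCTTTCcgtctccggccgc
Rpl38: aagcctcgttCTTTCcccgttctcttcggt
Rps6: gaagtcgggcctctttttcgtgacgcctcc
The letters CTTTC are not in the Rps6 window. None of the 45 windows held TATAAA between 40 and 20 bases before the start, where 1.87% of all promoters held it. CG pairs were counted in the window from 250 bases before to 50 after the start. Their median was 18 in the 100 brightest genes, 20 in the 500 brightest and 21 in genes above the reference level in every pool. It was 14 in all ranked genes and 6 in genes above that level in no pool.

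Oxidative phosphorylation genes of the nucleus encode the remaining subunits of the respiratory complexes and ATP synthase. Of 68 measured, 56 exceeded the reference level in every pool, 7 were among the 100 brightest genes and 31 among the 500 brightest. Cox7a2 of cytochrome c oxidase read 9.35, 9.78 and 9.05. Atp5e of ATP synthase read 9.15, 9.57 and 8.76. Uqcrb of complex III read 8.73, 9.07 and 7.88. They shared the order of the ribosomal proteins, with pool 2 highest and pool 3 lowest. Of the 68, 48 were highest in pool 2 and 46 lowest in pool 3, against 36.2% and 34.9% of all genes. Mitochondrially encoded and nuclear subunits thus stood in different orders, with pool 2 lowest for the 5 mitochondrial genes. Cox7b2 and Cox8b, forms of cytochrome oxidase subunits used in testis and muscle, had means of 1.35 and 2.26. Mitochondrial ribosomal proteins were dimmer: 40 of 58 exceeded the reference level, with a median of 4.26, and Mrps33 led at 7.13.

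Other housekeeping groups had larger shares above the reference level than the 31.6% of all genes. Translation factors counted 29 of 32, led by the elongation factors Eef1b2 (mean 8.21) and Eef2 (8.08). Heat shock proteins and chaperones counted 29 of 31. After Hspa8 came Hsp90b1 (7.93), a chaperone of the endoplasmic reticulum. The stress-induced Hspa1b read 5.62, 4.48 and 4.44, and Hspa1a had a mean of 2.33. Tcp1, a subunit of the cytosolic chaperonin, was the dimmest of the list at 1.14. Spliceosome and hnRNP genes counted 30 of 32, led by Hnrnpu (7.15), Snrpd1 (7.13) and Hnrnpk (7.13). Proteasome genes counted 30 of 36, led by the ATPase Psmc2 (7.71) and the core subunit Psmb1 (7.54). The immune and tissue-specific subunits Psmb8, Psmb11 and Psma8 lay at 3.76, 2.13 and 1.99. Cytoskeletal genes counted 26 of 31, with Tuba1b (8.82), Actg1 (8.81) and Tuba1c (8.53) ahead. Redox genes counted 21 of 25: after Fth1 came superoxide dismutase Sod1, at 8.76, 9.48 and 8.43, and the glutathione transferase Gstm2, at 8.08, 8.75 and 8.23. Glycolysis and carbon metabolism counted 19 of 29, with Gapdh at 8.47, 8.87 and 7.81. The dimmest probesets of Actg1 and Gapdh had means of 2.45 and 2.24. Pgk1, Ldhb and Pkm had means of 6.52, 6.49 and 6.46, and the spermatogenic lactate dehydrogenase Ldhc had one of 2.24.

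**Figure D2:**
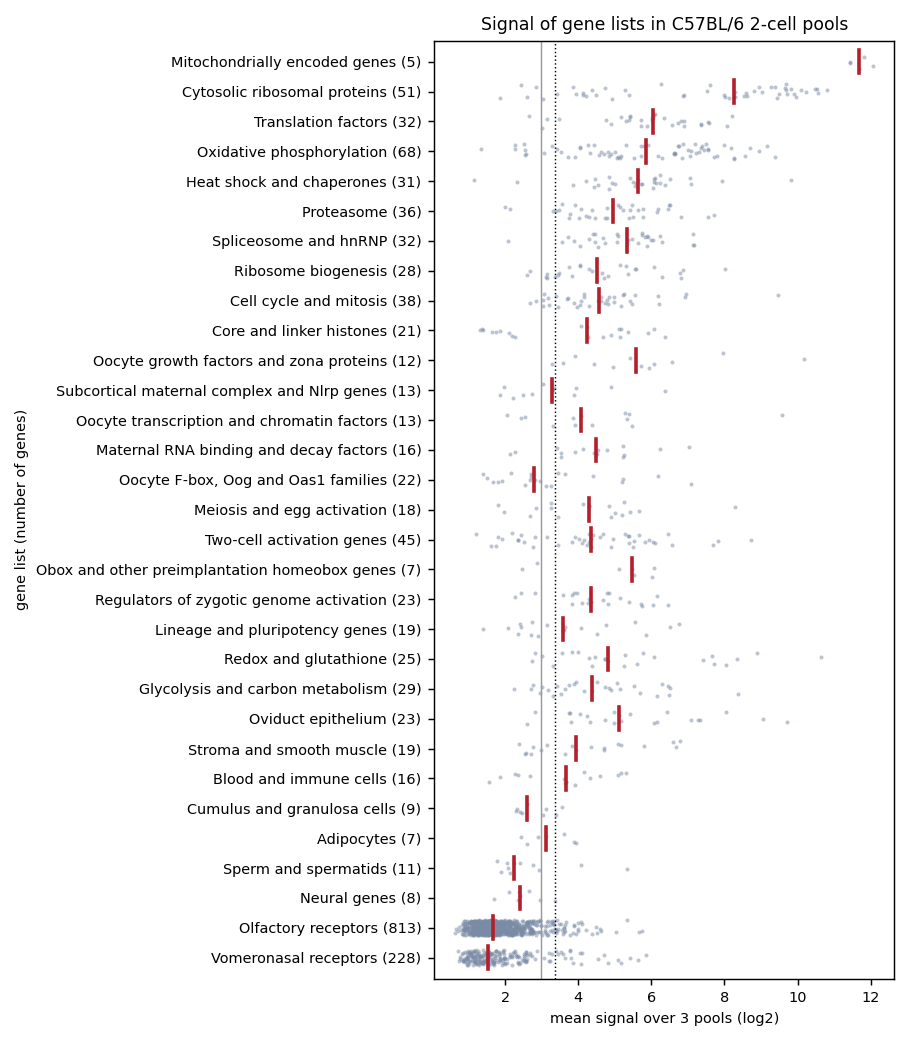
Mean log2 signal over the 3 pools (x axis) of every measured gene (grey points, spread vertically at random) of 31 gene lists (y axis, number of genes in parentheses), with the list's median in red. The dotted line is the mean olfactory receptor level and the grey line the median of all genes, 2.97; ribosomal proteins have a median of 8.27 and olfactory receptors one of 1.67.

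Genes of cell division were present in breadth but few were bright. Of 38 cell cycle and mitosis genes, 26 exceeded the reference level (68.4%, against 31.6% of all genes), with a median of 4.57. After Cks2, the replication licensing inhibitor Gmnn (geminin) read 7.14, 6.21 and 7.50. Cyclin A, Ccna2, read 7.17, 6.28 and 7.33. The kinase Cdk1 read 6.48, 5.50 and 6.63. Each was lowest in pool 2, as were 30 of the 38 genes, against 34.7% of all genes. Ribosome biogenesis genes, which make and assemble ribosomes in the nucleolus, counted 19 of 28 (67.9%). Of the 28, 21 were lowest in pool 2, against 34.7% of all genes. Brix1 read 8.32, 7.19 and 8.57, and Nop58, the core protein of box C/D particles, read 6.24, 5.13 and 6.82. Their pools stood in the reverse order of the ribosomal proteins they help to assemble.

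Histone genes spanned a wide range of signal. Of 21 core and linker histone genes 10 exceeded the reference level. The germ cell histones H2ac1 and H2bc1 had means of 6.36 and 5.91, and the linker histone H1f2 one of 6.06. The H4 gene H4f16 read 3.77, 4.29 and 6.00, and its other probeset had a mean of 1.66. H1f3 and H4c8 lay at 1.36 and 1.31. The median range of the family between pools was 0.81, small beside the distance between its brightest and dimmest members.

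Noncoding RNAs took several of the highest places. Rpph1, the RNA of ribonuclease P, read 9.01, 10.59 and 10.23. Rny3, a Y RNA, read 9.16, 10.04 and 10.63. Rnu11, of the minor spliceosome, read 8.89, 8.34 and 8.65. Rn7sk, Rpph1 and Rny3 shared a lowest value in pool 1. The nuclear long noncoding RNA Malat1 read 8.93, 8.98 and 9.28. Small nucleolar RNA genes, which guide modification of ribosomal RNA, counted 15 of 69 above the reference level (21.7%, against 31.6% of all genes). Pool 3 was the highest for 44 of the 69, against 34.7% of all genes, although 37 of the 69 exceeded the level in no pool. Of the 15 above it, 13 were highest in pool 3. Snord8, with the highest mean at 6.24, was lowest there, at 6.40, 6.60 and 5.71.

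MicroRNA probesets match precursor hairpins, so mature microRNA, precursor and host transcript cannot be told apart. Of 331 microRNA genes 47 exceeded the reference level in every pool, 14.2% against 31.6% of all genes, and 4 were among the 100 brightest. Mir761 read 10.24, 10.34 and 9.75. Mir449b read 9.29, 9.39 and 9.10. Mir466h read 8.26, 8.19 and 8.29. The genes around them had lower signals: Nrd1, which holds Mir761, had a mean of 4.87, Cdc20b, around Mir449b, one of 2.15, and Sfmbt2, around Mir466h, one of 1.87. Mature sequences in RefSeq (GRCm38.p6) were found for 286 of the 331 genes and for 5 of the 12 brightest. The mature form of the brightest is printed with those of the neighbours of Mir449b in the same host gene, with the seed (bases 2 to 8) in capitals. The positions are chr4:109017669-109017690 for miR-761, chr13:113037549-113037570 for miR-449a-5p and chr13:113036008-113036028 for miR-449c-5p, all on the plus strand.
mmu-miR-761: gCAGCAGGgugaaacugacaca
mmu-miR-449a-5p: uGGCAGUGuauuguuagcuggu
mmu-miR-449c-5p: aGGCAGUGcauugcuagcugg
The members miR-449a-5p and miR-449c-5p share the seed GGCAGUG, which miR-761 does not have. Mir449a had a mean of 2.28 and Mir449c one of 1.52, both under the reference level, beside 9.26 for Mir449b of the same cluster. Mir449a and Mir449c were picked after their values were seen, as neighbours of Mir449b.

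Genes stored by the oocyte were often above the reference level. Of 94 measured genes on the 6 maternal lists, 48 exceeded the reference level in every pool, 51.1% against 31.6% of all genes. Among oocyte growth factors and zona proteins 9 of 12 did. After Omt2b came the oocyte-secreted proteins Oosp1, at 8.34, 7.56 and 8.01, and Oosp3, at 7.06, 6.16 and 6.48. Bmp15, the growth factor through which the oocyte acts on its follicle, read 6.15, 5.10 and 5.89. Its partner Gdf9 read 3.80, 3.24 and 3.70, so pool 2 fell below the reference level. Zp2, a zona pellucida protein, read 3.47, 2.74 and 3.61 and was likewise under that level in pool 2 alone. In the list, 11 of 12 genes were lowest in pool 2, against 34.7% of all genes.

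Maternal regulators were uneven. Btg4, the adaptor that brings the deadenylase to maternal messengers, read 7.51, 6.08 and 7.52. Cnot6l, a catalytic subunit of that deadenylase, read 6.64, 6.03 and 6.07. Zar1, an RNA-binding protein of the oocyte, read 5.83, 4.84 and 5.05. Thus 11 of 16 RNA binding and decay factors exceeded the reference level. In pool 2, 13 of 16 were lowest, against 34.7% of all genes. Spin1, a reader of methylated histone H3, was the brightest meiosis and egg activation gene at 8.61, 7.50 and 8.74, while Mos, the kinase that holds the egg in metaphase, had a mean of 1.81. Behind Dppa3 stood Ctcf (5.47), the histone chaperone Npm2 (5.38), and Zfp57 (5.33) and Trim28 (5.29), which protect imprints. The oocyte transcription factor Figla had a mean of 2.04, and Nobox read 2.01, 1.64 and 3.98. The subcortical maternal complex list had 3 of 13 genes above the reference level in every pool. Its Zbed3 read 6.65, 5.86 and 6.62. Nlrp14 read 5.30, 4.17 and 5.22, and Nlrp5, also called Mater, read 4.85, 2.75 and 4.18. Nlrp5 was thus under the reference level in pool 2, and the third gene above it in every pool was Nlrp4b, at 3.39, 4.64 and 3.65. The other probeset of Nlrp4b had a mean of 1.90. Nlrp4a read 3.70, 2.52 and 3.69 and Nlrp4e 3.48, 3.31 and 3.21, above the level in some pools only, and Nlrp4c and Nlrp4g had means of 1.96 and 1.86. Oog1 (7.08) and Oog3 (6.18) of the oogenesin family were bright, whereas 11 of 13 oocyte Fbxw genes exceeded the reference level in no pool. Near-identical copies of these families can share probes, so their members are uncertain one by one.

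Most genes of zygotic genome activation exceeded the reference level. Of 45 measured 2-cell activation genes 30 exceeded the reference level in every pool (66.7%, against 31.6% of all genes), with a median of 4.33. Sp110, a nuclear body protein gene, read 9.04, 8.12 and 9.01 by its brightest probeset, while the dimmest of its 3 had a mean of 2.47. The Eif1a-like genes Gm2022 and Gm4340 read 8.41, 7.24 and 7.82, and 8.24, 7.10 and 7.73. The oogenesin relative Pramel7 read 6.29, 6.01 and 7.40. All 4 were lowest in pool 2, as were 36 of the 45, against 34.7% of all genes. Of 5 Zscan4 genes, telomere factors of the 2-cell wave, 4 exceeded the reference level. Zscan4e read 5.92, 5.26 and 5.80 and Zscan4a 3.70, 3.36 and 2.41. Usp17lc, a deubiquitinase, had a mean of 4.95 but Usp17la one of 1.19. Tdpoz2 (5.82) and Tdpoz1 (5.28) exceeded the level while Tdpoz3 (1.92) and Tdpoz4 (2.42) did not. These multicopy genes too can share probes.

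Homeobox genes of the preimplantation embryo were 5 of 7 above the level. Obox2 read 6.22, 5.67 and 6.35. Obox6 read 6.15, 5.36 and 6.57. Cphx1 read 5.99, 4.42 and 6.17. Obox3 and Obox1 had means of 5.47 and 5.11, and Obox7 one of 2.87. Regulators of genome activation counted 18 of 23. Dppa4 and Dppa2, paired chromatin factors that act upstream of the 2-cell wave, read 6.58, 5.76 and 7.06, and 6.14, 5.24 and 6.74. The Hippo effector Yap1 read 6.24, 5.86 and 6.38, and its other probeset had a mean of 2.67. The zinc finger factor Klf17 read 5.63, 4.94 and 6.55. Dppa4, Dppa2, Yap1 and Klf17 were all lowest in pool 2 and highest in pool 3. Klf5 was not, at 6.16, 5.95 and 5.08. Esrrb and Tfap2c of the same list had means of 2.43 and 2.27.

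Genes of the later lineages were lower as a list: 7 of 19 exceeded the reference level (36.8%, against 31.6% of all genes). The keratins Krt18 and Krt8, of the trophectoderm and of other epithelia, read 6.68, 7.44 and 6.13, and 5.78, 6.12 and 5.62. Id2, a helix-loop-helix inhibitor, read 6.56, 6.96 and 5.98. These 3 were highest in pool 2 and lowest in pool 3, the order of the ribosomal protein, oxidative phosphorylation, redox and oviduct lists alike. The endoderm factor Sox17 had the same order, at 4.56, 5.42 and 4.26. Gata4 and Atp1b1 did not, at 4.78, 3.99 and 4.77, and 5.16, 5.92 and 5.55. The pluripotency genes Tdgf1 and Sall4 lay at 2.09 and 1.39.

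Genes of the study's chromatin theme had moderate signals. Of 18 genes for methylation and demethylation of histone H3 at lysine 4, 10 exceeded the reference level in every pool. That share of 55.6% stood against 31.6% of all genes, and the list's median was 3.91. Kdm5b, a demethylase of that residue, read 5.83, 5.35 and 6.59. Hdac2 and Rcor1, partners of KDM1A in the CoREST complex, read 6.14, 6.25 and 5.81, and 5.64, 5.32 and 5.70. Wdr5, a core subunit of the methyltransferase complexes, read 5.20, 4.30 and 5.77, and the methyltransferase Kmt2c read 5.14, 4.27 and 5.40. Kdm5b, Wdr5 and Kmt2c were lowest in pool 2 and highest in pool 3, whereas Hdac2 was lowest in pool 3. Rcor2, a relative of Rcor1, had a mean of 2.33, and the germ cell methyltransferase Prdm9 one of 2.82. Among DNA methylation and imprint protection genes, 10 of 13 exceeded the level: the oxidase Tet1 read 4.83, 3.82 and 5.40, while Uhrf1, the partner of the maintenance methyltransferase, read 2.57, 3.36 and 3.96, and Dnmt3l, the cofactor of imprint setting in the oocyte, had a mean of 2.43.

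Genes known from the oviduct wall and other cells of the mother also had signal in the embryo pools. Of 23 measured oviduct epithelium genes 19 exceeded the reference level in every pool (82.6% against 31.6% of all genes), with a median of 5.12. This list too was chosen with earlier results of these data known. Dynlrb2, a dynein light chain of cilia, read 9.68, 10.33 and 9.12 and ranked 26th of all genes. Ccdc153, a gene of motile cilia, read 8.92, 9.51 and 8.70. The secreted defence proteins Ltf (lactotransferrin) and Lcn2 (lipocalin) read 7.53, 7.52 and 6.97, and 8.14, 7.20 and 5.88. Pool 3 was the lowest for each, and for 15 of the 23 genes, against 34.9% of all genes. Pool 2 was the highest for 16 of the 23, against 36.2% of all genes. The list's mean level was 5.52, 5.87 and 5.16. Defining members were above the reference level too, with Foxj1, the master factor of ciliated cells, at a mean of 4.96 and the epithelial adhesion molecule Epcam at 5.40, both picked after their values were seen. Muc16 (2.83) and Itgb6 (2.60) were the dimmest. Some members, such as Gsto1 and Anxa1, are used by many cell types. Plet1, a surface protein of several epithelia and of trophoblast, ranked 44th at 9.69, 9.44 and 8.52. Cilia and flagella associated (Cfap) genes, a family added after the values were seen, had 13 of 22 above the level. Of the 22, 18 were highest in pool 2, against 36.2% of all genes. Cfap36 led at 6.13, 6.64 and 5.21.

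Stroma and smooth muscle genes counted 10 of 19 above the reference level (52.6%, against 31.6% of all genes), and 16 of 19 were lowest in pool 3, against 34.9% of all genes. The matrix proteoglycan Dcn (decorin) read 6.95, 7.41 and 6.02. The matrix protein Mgp read 6.89, 7.29 and 5.84. The collagen Col1a2 read 7.03, 7.09 and 5.65. The contractile Cnn1 read 3.45, 3.79 and 2.20, under the reference level in pool 3 alone, and the mesenchymal receptor Pdgfrb, with a mean of 2.53, was under it in every pool. The list's mean level was 4.39, 4.54 and 3.74. Blood and immune genes counted 4 of 16 (25%, a smaller share than the 31.6% of all genes): Lyz2 (lysozyme), S100a8, Tyrobp and H2-Ab1. The signalling adaptor Tyrobp read 5.77, 5.54 and 3.94, and the neutrophil granule genes Camp and Retnlg lay at 1.56 and 1.87. The list's mean level was 3.94, 3.67 and 3.22.

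Cumulus and granulosa genes, of the follicle cells that surround the ovulated egg, had 0 of 9 above the level in every pool and 3 of 9 with a range over 2. Cyp11a1, which begins steroid synthesis from cholesterol, read 2.56, 2.53 and 5.53. Star, which brings cholesterol into mitochondria, read 2.23, 2.61 and 4.50. Hsd3b1, a later enzyme of that route, read 1.29, 2.21 and 3.48. Each of the 3 was above the reference level in pool 3 alone. Akr1cl, an aldo-keto reductase, did the same at 2.98, 2.58 and 5.18. Of the follicle cell list, Inha read 3.01, 3.56 and 3.63 and was under the level in pool 1 only. Inhbb, at 2.97, 2.96 and 3.20, was under it in every pool, and 5 of the 9 genes exceeded it in no pool. Pool 3 was the highest for 7 of the 9, against 34.7% of all genes. The list's mean level was 2.48, 2.56 and 3.36. Among the other lists, 2 of 11 sperm and spermatid genes, 0 of 8 neural genes, 1 of 7 adipocyte genes and 2 of 8 liver and pancreas genes exceeded the level. Spata18 (5.34) and Meig1 (4.09) were the sperm genes above it, and the protamine gene Prm3 had a mean of 2.93.

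Families not known from embryos lay at the bottom. The median was 1.67 for 813 olfactory receptor genes, 1.54 for 228 vomeronasal receptors, 1.72 for 21 taste receptors, 2.02 for 39 defensins and 1.90 for 41 keratin-associated proteins, against 2.97 for all genes. Single members still reached well above the reference level: Olfr884 read 6.00, 5.39 and 5.81, and Vmn1r9 read 5.79, 6.17 and 5.60. A signal above that level is thus no proof that a single gene was transcribed. In all, 22 of the 813 olfactory receptor genes exceeded it in every pool, 2.71%. That share was kept low by construction, since the level was set from their own probesets. Of 257 genes named Zfp, mostly zinc finger factors, 48 exceeded the level (18.7%), as did 55 of 206 solute carriers (26.7%). Both shares were below the 31.6% of all genes. Cytochromes P450 counted 4 of 78.

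Across all probesets the pools correlated with Pearson's r of 0.935 for pools 1 and 2, 0.930 for pools 1 and 3 and 0.910 for pools 2 and 3, a description over probesets that share probe effects. Among the 4737 genes above the reference level in every pool, the median range between the highest and the lowest pool was 0.63 log2 units and the median SD was 0.33. The range was below 0.18 for the 5% of these genes that varied least and above 1.40 for the 5% that varied most. The median range was 0.47 for genes with a mean from 3 to 4 and 0.85 for a mean from 7 to 8, and a gene near the reference level could enter this count only with a small range. Of the 7274 genes above the level in at least 1 pool, 1690 (23.2%) had a range over 1 and 101 (1.39%) a range over 2, which is a 4-fold difference. Just inside and outside that limit lay Fcor at 2.00246 and Isg20l2 at 1.99986. Of the 101 genes, 30 were highest in pool 1, 41 in pool 2 and 30 in pool 3, while 20, 27 and 54 were lowest in them. Over all genes the shares were 29.1%, 36.2% and 34.7% highest, and 30.4%, 34.7% and 34.9% lowest. Only 27 of the 101 exceeded the level in every pool. The count was 59 without pool 1, 45 without pool 2 and 29 without pool 3, and the median range 0.46, 0.31 and 0.36. With fewer pools the range of a given probeset can only shrink, but the genes counted were drawn anew each time.

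**Figure D3:**
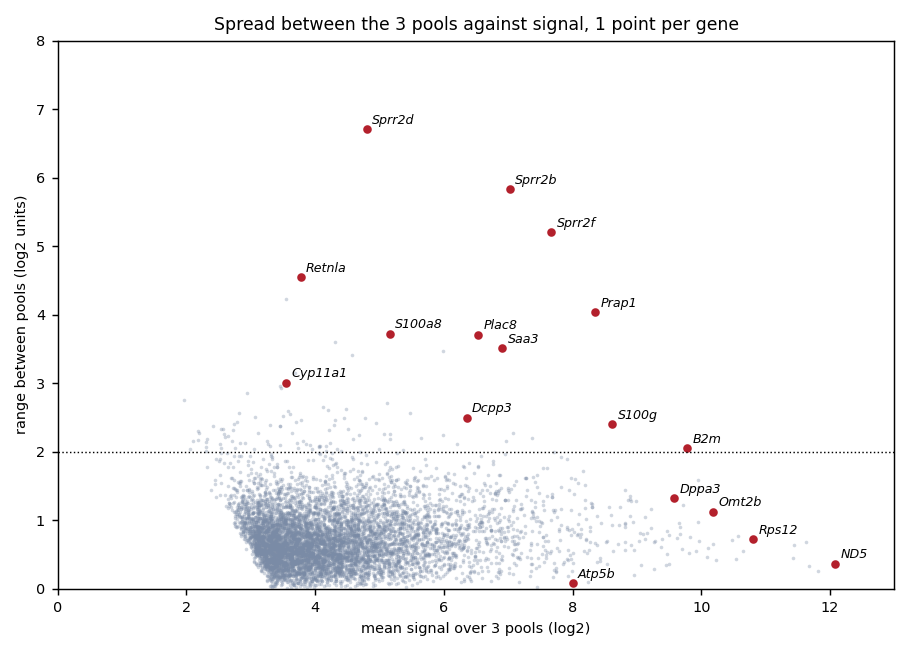
Range between the highest and lowest pool in log2 units (y axis) against mean log2 signal over the 3 pools (x axis), 1 point for each of the 7274 genes above the olfactory receptor level in at least 1 pool, with 17 genes labelled in red. The dotted line marks a range of 2, which 101 genes pass; Sprr2d stands highest at 6.71.

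The largest ranges belonged to small proline-rich proteins, precursors of the cross-linked envelope of epithelial cells that are also known from the oestrogen-stimulated uterus. Sprr2d read 9.24 in pool 1 but 2.64 and 2.53 in pools 2 and 3. Sprr2b read 10.05, 6.81 and 4.22. Sprr2f read 10.10, 8.01 and 4.90. For Sprr2b and Sprr2f the pools stood far apart from each other, while for Sprr2d pools 2 and 3 were both under the reference level. Sprr2e and Sprr1a were also highest in pool 1, at 5.23, 2.87 and 2.28, and 5.05, 3.26 and 2.51. Both were under the reference level in pools 2 and 3. Of the 12 Sprr genes, a family added after the values were seen, 6 had a range over 2, with Sprr2g (range 2.00) the only one of these under the reference level in every pool, while Sprr2h and Sprr2k were dim in all pools with means of 1.67 and 1.40.

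The start regions of the 4 Sprr2 genes with the largest ranges are printed 5′ to 3′ because these neighbours on chromosome 3 can be compared letter by letter. Each runs from 50 bases before the start to 10 bases from it on, on the plus strand of GRCm38.p6 (RefSeq), at chr3:92316655-92316714 for Sprr2b, chr3:92339090-92339149 for Sprr2d, chr3:92352093-92352152 for Sprr2e and chr3:92365137-92365196 for Sprr2f. Capitals mark TATAAA, the core letters of the TATA box.
Sprr2b: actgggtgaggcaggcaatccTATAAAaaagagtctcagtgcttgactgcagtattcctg
Sprr2d: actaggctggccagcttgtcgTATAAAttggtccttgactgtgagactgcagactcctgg
Sprr2e: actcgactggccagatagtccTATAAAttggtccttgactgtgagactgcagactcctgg
Sprr2f: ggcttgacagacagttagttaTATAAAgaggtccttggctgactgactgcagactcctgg
In each the letters begin 29 bases before the start. Between 40 and 20 bases before the start, on the transcribed strand, TATAAA was found in 8 of 10 Sprr promoters and in 1.87% of all 32851 promoters of the table; on the opposite strand the shares were 0 and 0.548%. Promoters of the genes with a range over 2 held it in 11 of 87 windows (12.6%), and in 7 of 82 (8.54%) with the Sprr genes left out, against 2.27% for all ranked genes. Compared position by position without gaps, Sprr2d and Sprr2e were identical at 55 of the 60 bases (91.7%). Sprr2b and Sprr2d were identical at 33, a count that leaves out any shifted match. These windows lie mostly before the start, so their identity does not tell whether probes of the transcripts are shared. The array values of close copies may still in part be shared, which was not tested.

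The other wide genes fell into a few patterns. Pool 1 stood highest for S100a8 and S100a9, the paired subunits of the neutrophil protein calprotectin, at 7.49, 3.76 and 4.24, and at 6.41, 2.82 and 3.70. Pool 1 also stood above the others for Chil1, a chitinase-like secreted protein, at 6.14, 2.59 and 1.90, and for Plac8 at 8.57, 6.15 and 4.87. Il1f6, the cytokine interleukin-36 alpha, read 6.36, 4.42 and 2.95. Pool 2 alone was high for Retnla, a resistin-like secreted protein, at 2.23, 6.78 and 2.31. It also led for the secreted Dcpp proteins, which the oviduct is known to make: Dcpp3 read 5.63, 7.96 and 5.47, Dcpp1 4.34, 5.43 and 2.82, and Dcpp2 2.78, 5.12 and 2.61. Pool 3 was the low one for Prap1, a secreted acidic protein of epithelia, at 9.14, 9.97 and 5.94. Saa3, an acute-phase serum amyloid, read 8.07, 8.08 and 4.57. S100g, a calcium-binding protein of oestrogen-responsive epithelia, read 9.01, 9.63 and 7.23, and the protease inhibitor Ctla2a read 7.38, 6.68 and 3.91. For these genes pools 1 and 2 were close to each other and pool 3 apart. Car2 (carbonic anhydrase) and Mmp7 (a matrix protease) had the same shape, at 5.81, 6.12 and 3.41, and 6.50, 5.98 and 3.94. The other probeset of Mmp7 had a mean of 2.97. Pool 2 was the low one for Zfp982, a zinc finger gene, at 4.99, 2.91 and 5.53.

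**Figure D4:**
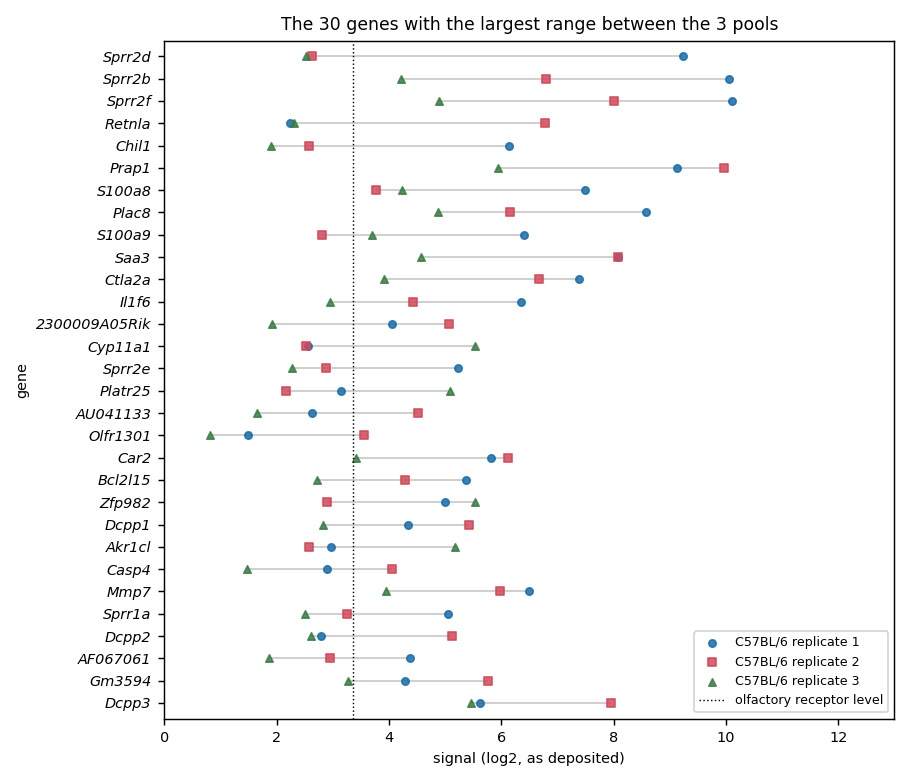
Deposited log2 signal (x axis) of the 30 genes with the largest range between pools (y axis), 1 marker per pool, with the dotted line at the mean olfactory receptor level. Sprr2d spans 2.53 to 9.24, and Prap1 spans 5.94 to 9.97 with pools 1 and 2 together at the upper end.

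These patterns extended to whole gene lists. Each list's mean was taken relative to the pool's median over all genes, and pools 1, 2 and 3 are given in that order. For 2-cell activation genes it was 1.67, 0.92 and 1.54. For oocyte growth factors and zona proteins it was 2.99, 2.20 and 2.84. For cell cycle and mitosis genes it was 1.67, 1.23 and 1.91. Pool 2 was the lowest for these lists, for all 6 maternal lists and for 3 of the 4 embryonic ones, and 64 of 94 maternal and 61 of 89 embryonic genes were lowest in pool 2, against 34.7% of all genes. Ribosome biogenesis followed, at 1.69, 1.31 and 2.09.

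Ribosomal proteins stood the other way, at 4.28, 4.52 and 4.05. Nuclear oxidative phosphorylation genes stood at 2.78, 3.06 and 2.52, and redox genes at 2.49, 2.80 and 2.23. Oviduct epithelium stood at 2.54, 2.84 and 2.19. These 4 lists were highest in pool 2 and lowest in pool 3. Stroma and smooth muscle stood at 1.41, 1.52 and 0.77, and blood and immune cells at 0.96, 0.65 and 0.25, both lowest in pool 3. Cumulus and granulosa cells stood at -0.50, -0.47 and 0.39, highest in pool 3. With the median over members in place of the mean, the gap between pools 2 and 3 went from 0.47 to 0.73 for ribosomal proteins, from 0.58 to 0.36 for redox genes and from 0.68 to 0.42 for cell cycle and mitosis genes. The lowest pool of the oviduct list then was pool 1, the highest of the stroma list pool 1 and the highest of the blood list pool 2. The same change made pool 3 the lowest for oocyte transcription and chromatin factors and pool 1 for the oocyte F-box, Oog and Oas1 list. With 1 array per pool, no difference between pools can be tested, and the part of oviduct, stroma, blood and follicle cells in the order of the other lists was not tested.

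**Figure D5:**
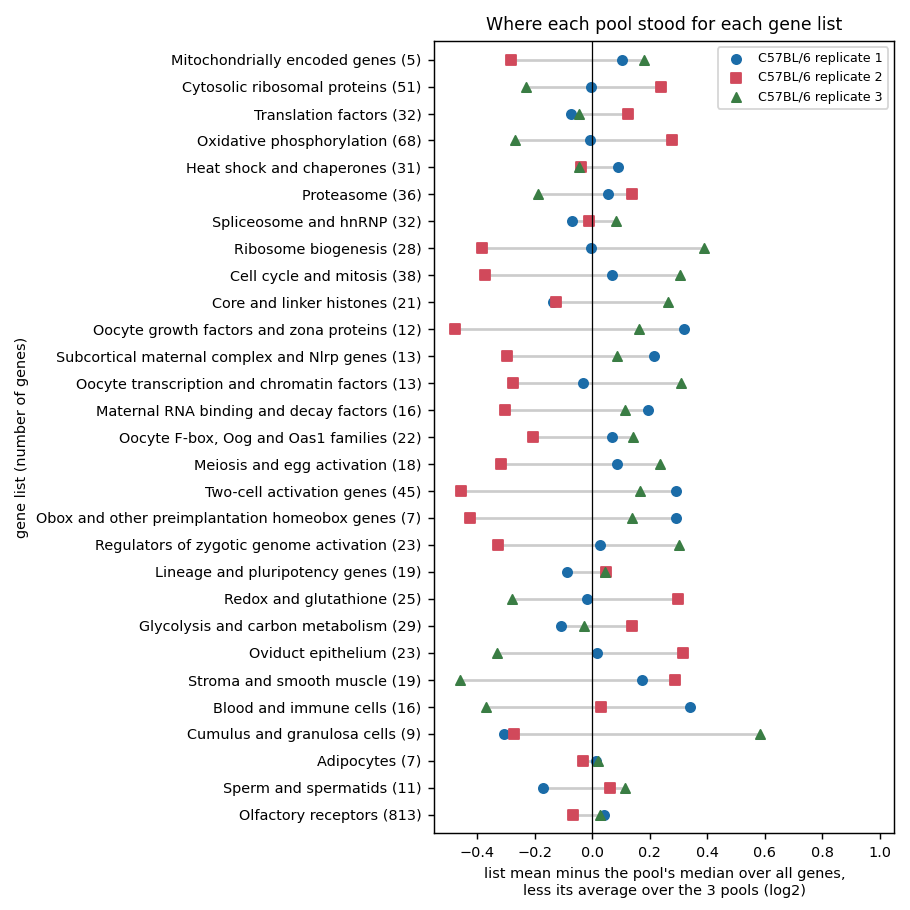
For 29 gene lists (y axis, number of genes in parentheses), each pool's list mean minus that pool's median over all genes, less the average of this over the 3 pools (x axis, log2 units), 1 marker per pool. Pool 2 lies at the left for the maternal lists and at the right for ribosomal proteins and oviduct epithelium, while pool 3 lies at the far right for cumulus and granulosa cells (0.39 against -0.50 and -0.47 before the average is subtracted).

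Among the 500 brightest genes, the smallest ranges were those of Usp50, a ubiquitin protease relative, at 7.46, 7.44 and 7.44, and of Atp5b, the catalytic subunit of ATP synthase, at 7.95, 8.02 and 8.03. Serp1, a protein of the endoplasmic reticulum, read 7.11, 7.21 and 7.19. Anapc5, of the anaphase-promoting complex, read 6.27, 6.28 and 6.38. Mtpn, Fabp3 and Copz1 had ranges of 0.14, 0.15 and 0.16. These genes were picked for their small ranges, so the closeness of their pools follows from the choice. The dimmer probesets of Usp50 and Fabp3 had means of 2.04 and 3.23.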

How the data were processed

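Values were taken from the table the authors deposited, which holds log2 signals per probeset. Per the submitters' processing notes, R 3.1.0, oligo, RMA and limma were used; their roles, like the background correction and any filter, are not stated in what was used here. RMA with quantile normalization gives all arrays one distribution, which these columns lack; rows may be a subset or columns rescaled, and quantile normalization was among the alternatives. Arrays gave no depth, and 3 arrays limit the precision. Only the 3 columns labelled C57BL/6 were read, as deposited. Gene symbols came from the platform annotation, and 15621 of 15745 named probesets matched RefSeq (GRCm38.p6) by gene ID. Genes were ranked by mean log2 over the 3 pools, the brightest probeset standing for a gene. No test was run, since 1 group allows none. The members and gene lists were chosen with earlier results of these data known, and 9 symbol families were added after the values were seen. Named genes were the 50 brightest; of each list up to 6 brightest, 2 dimmest and 2 widest; the 30 with the largest range; and the 10 with the smallest range among the 500 brightest. Exceptions are stated. Other alternatives were median centring, other reference levels, other handling of probesets, medians, and leaving out each pool. Python 3.11.15, pandas 2.3.3, numpy 2.4.6 and matplotlib 3.10.9 were used, and ranking and scaling code was checked on simulated data.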

Additional observations from a re-analysis of the deposited data

How the results depend on the processing

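No paired analysis was possible because only 1 group was described and no result came from a test. The count of 4737 genes above the reference level was 2066 with the 99th percentile of olfactory receptor probesets and 3047 with vomeronasal receptors, an alternative chosen after seeing the data; leaving out each pool gave 5087 to 5225. Leaving out each pool gave median ranges of 0.31 to 0.46 and 29 to 59 genes with a range over 2. For a given probeset fewer pools can only narrow a range, but the genes and probesets were drawn anew each time. Of the 100 brightest genes, 81 were kept with the mean of all probesets, 91 with the median of the pools and 89 to 95 without 1 pool. The highest and lowest pools were kept for 36 of 67 lists with the median over members, for 58 with quantile normalization and for 65 with the mean of all probesets; the cause was not tested. Differences between pools of 11 lists kept their sign in all 44 recalculations. Each was the gap between a list's highest and lowest pool in these same data. Median centring, 1 of the 4 settings, cannot change such a gap, because list means were taken relative to pool medians. With the median over members, that of oocyte growth factors went from 0.80 to 1.14, of ribosomal proteins from 0.47 to 0.73, of cell cycle genes from 0.68 to 0.42, of stroma from 0.75 to 0.50, of cumulus and granulosa cells from 0.89 to 0.65, of redox genes from 0.58 to 0.36 and of oviduct epithelium from 0.65 to 0.46.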

Other observations

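Several groups outside the main lists had bright members. Among 22 measured genes of ubiquitin and its enzymes, 20 exceeded the reference level in every pool. The conjugating enzymes Ube2d2a and Ube2k read 8.49, 7.46 and 8.63, and 7.99, 7.49 and 8.34 in pools 1, 2 and 3. The cullin scaffolds Cul3 and Cul1 read 7.56, 6.94 and 7.94, and 7.09, 6.00 and 7.37. These 4 genes were lowest in pool 2, and the ubiquitin-like Nedd8 was not, at 7.70, 8.07 and 7.80. Skp1, the adaptor that joins Cul1 to F-box proteins, had a mean of 2.43.

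Of 8 cyclins 6 exceeded the level: cyclin E, Ccne1, read 6.24, 5.65 and 6.65, and the D cyclins Ccnd1, Ccnd3 and Ccnd2 had means of 4.81, 4.63 and 4.09. Of 26 kinesins 13 did, led by the transport motor Kif5b (4.75) and the mitotic motors Kif20b (4.74) and Kif18a (4.60). The other probeset of Kif5b had a mean of 1.64. Nuclear import receptors were led by Kpna2, at 5.99, 5.57 and 6.62. Among solute carriers the phosphate transporter Slc34a2 read 6.57, 5.62 and 7.41 and the chloride cotransporter Slc12a2 read 6.44, 5.52 and 7.02, both lowest in pool 2, whereas the mitochondrial ADP/ATP carrier Slc25a5 read 6.44, 7.06 and 5.63. The interferon-induced membrane protein gene Ifitm3 read 9.01, 9.44 and 7.99. Defa34 was the only defensin of 39 above the level in every pool, at 6.41, 7.38 and 6.29. Of 23 Hox genes 3 were above it, and Hoxd10 had the highest mean, 4.39.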
